A study of Homo sapiens with 18 samples.

Results

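Aminoacyl-tRNA synthetases are the enzymes that join each amino acid to its transfer RNA. Their mRNAs were followed here in HEK-293T, a line derived from human embryonic kidney, with sequencing libraries made from poly(A) RNA. Members were the rows of the count table whose gene symbol is a letter followed by ARS, with or without a final 1 or 2, together with *FARSA*, *FARSB* and *EPRS1*. The rule found 37 genes among 59251 in the table. Of these, 20 were cytosolic enzymes, with the suffix 1 or none, and 17 were mitochondrial enzymes, with the suffix 2. The rule uses symbols and no measured value, but the members were chosen with earlier results of these data known. All 37 members were among the 17966 genes with enough counts to be tested, and the lowest of them, *FARS2*, lay at 9.93 ± 0.700 CPM (mean ± SD, n = 3) in DMSO cells. CPM is a gene's count scaled to a library of fixed size, after TMM correction (a scaling for libraries of differing makeup).

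The 18 libraries formed 6 groups of 3, all from HEK-293T cells plated at 70000. The untransfected groups received DMSO (labelled 0.5 µM), 0.1 µM rapamycin, which inhibits the kinase mTOR, or 0.5 µM grazoprevir, an inhibitor of the hepatitis C virus protease. The transfected groups were labelled wtCsy4 (full-length Csy4 with 0.5 µM DMSO), SplitCsy4_DMSO (split Csy4 with 0.5 µM DMSO, called untriggered here) and SplitCsy4_Grazoprevir (split Csy4 with 0.5 µM grazoprevir, called triggered here), each treated 6 h after transfection. Csy4 is a bacterial CRISPR endoribonuclease that cuts RNA beside a specific hairpin, and grazoprevir serves as the trigger of the split enzyme. No group transfected without a Csy4 construct was analysed here, so transfection, construct and enzyme cannot be told apart when transfected cells are compared with untransfected cells. The labels do not state whether the replicates are independent cultures. A p-value here reflects the spread among libraries within groups, estimated jointly over all 6 groups, and that spread may be technical.

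Each amino acid has its own synthetase activity, and human cells mostly use separate nuclear genes for the enzyme of the cytosol and that of the mitochondrion. Exceptions are *GARS1* and *KARS1*, which each encode both forms, and *QARS1*, which has no mitochondrial counterpart because mitochondria make glutaminyl-tRNA by transamidation. In the cytosol 8 of the 20 genes (among them *EPRS1*, *IARS1*, *KARS1*, *LARS1*, *MARS1*, *QARS1* and *RARS1*) encode enzymes of the multi-synthetase complex, a particle held together by the scaffold proteins AIMP1, AIMP2 and EEF1E1. Many cytosolic synthetase genes are known targets of ATF4, the transcription factor of the integrated stress response and of amino acid shortage, which binds the CCAAT-enhancer/ATF response element. mTOR signalling is known to raise the amount of ATF4.

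Library totals ran from 12362101 to 19095828 counts. The TMM factors were 1.034 to 1.047 in the 3 full-length Csy4 libraries and 0.982 to 1.006 in the other 15. Markers chosen for HEK-293T cells were present, with *VIM* at 350.2 and *LIN28B* at 250.2 CPM in DMSO cells, *PAX2* at only 3.63 CPM and *NEFM* below the filter on low counts. The 10 markers of blood, fibroblasts, hepatocytes and keratinocytes summed to 0.728 to 3.6 CPM in any library, 8 of them were below the filter and *CD3E* was at 0 in every library. *ALB*, a hepatocyte gene, lay at 0.0438 CPM in DMSO and 1.21 CPM in full-length Csy4 cells, and its part in the results was not tested. The 22 rows for transfer RNAs encoded in mitochondria held 0 counts in this poly(A) table.

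The sequences shown first are those around the ATF4-type element, because the rapamycin results below are also given by its presence. Promoter windows from 250 bases before to 50 bases after a transcription start, from RefSeq on GRCh38.p14, were found for 30 of the 37 members. The motif searched was TGATGNAA, read on both strands (TTNCATCA on the other). It was present in 7 of 16 cytosolic members with a window (43.8%), in 1 of 14 mitochondrial members (7.1%) and in 3.62% of all 35116 windows of the same length. A member counted if any of its windows matched, and the 30 members had 39 windows. The last share is per window, so it is not on the same footing. The lines below give 30 bases around each match, 5′ to 3′ on the strand of the gene, with the matching letters in capitals.
AARS1: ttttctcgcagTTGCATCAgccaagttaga
CARS1: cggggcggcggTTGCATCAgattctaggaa
GARS1: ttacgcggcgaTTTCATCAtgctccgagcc
IARS1: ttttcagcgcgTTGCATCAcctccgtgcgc
MARS1: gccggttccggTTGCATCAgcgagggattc
NARS1: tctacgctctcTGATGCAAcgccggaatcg
TARS1: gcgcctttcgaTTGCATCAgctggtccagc
YARS2: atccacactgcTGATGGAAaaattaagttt
The windows shown lie at chr16:70289675-70289704 for *AARS1*, chr11:3057407-3057436 for *CARS1*, chr7:30594834-30594863 for *GARS1*, chr9:92293692-92293721 for *IARS1*, chr12:57488053-57488082 for *MARS1*, chr18:57621804-57621833 for *NARS1*, chr5:33440956-33440985 for *TARS1* and chr12:32756076-32756105 for *YARS2*. *GARS1*, *MARS1* and *TARS1* are on the plus strand and the others on the minus strand. In 5 of the 7 cytosolic genes (*AARS1*, *CARS1*, *IARS1*, *MARS1* and *TARS1*) the capitals are the same 8 letters. In *CARS1*, *MARS1*, *TARS1* and *IARS1* the first base of the match lies within 13 bases of the start. A match describes letters only, and says nothing of whether a factor binds there.

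*IARS1*, the isoleucine enzyme and the member with the highest mRNA level per length, is shown with the 250 bases before its start. They lie at chr9:92293698-92293947 on the minus strand and hold both the response element near the 3′ end and an E-box, CACGTG, the site type of MYC and related factors. Capitals mark both.
IARS1 upstream: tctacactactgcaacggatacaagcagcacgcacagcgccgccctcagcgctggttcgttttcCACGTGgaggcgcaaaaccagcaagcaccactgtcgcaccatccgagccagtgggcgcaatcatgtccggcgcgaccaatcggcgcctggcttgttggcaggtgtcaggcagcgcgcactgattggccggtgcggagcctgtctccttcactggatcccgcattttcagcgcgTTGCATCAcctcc
The E-box was found in 7.26% of all windows, in 1 of 16 cytosolic members and in 3 of 14 mitochondrial members (*CARS2*, *EARS2* and *MARS2*). Here too a member counted if any of its windows matched.

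In DMSO cells the cytosolic enzymes were mostly the more abundant ones. Per kilobase of annotated exon, *IARS1* had the highest level at 142 ± 2.81 CPM per kb (mean ± SD, n = 3), followed by *EPRS1*, which encodes the joined glutamate and proline enzyme, at 114 ± 2.33. The mitochondrial isoleucine enzyme *IARS2* came next at 107 ± 2.87 CPM per kb, above the other 18 cytosolic genes. *TARS1* at 81.3 ± 2.32 and *GARS1* at 80.3 ± 1.52 CPM per kb followed, and these 2 neighbours did not differ beyond their spread. At the low end *CARS1* lay at 6.98 ± 0.496, *EARS2* at 4.07 ± 0.204 and *FARS2* at 2.05 ± 0.145 CPM per kb. Exon lengths count every annotated exon, with a median of 5079 bases for cytosolic and 4077 bases for mitochondrial members, so genes with many unused exons are placed too low on this scale.

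**Figure D1:**
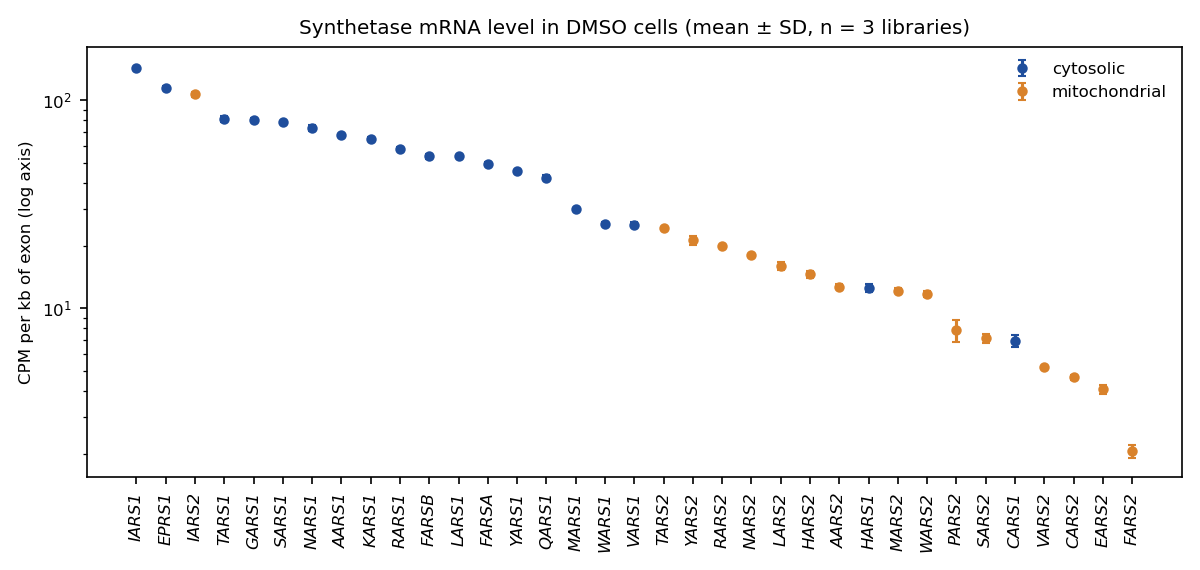
mRNA level of 35 of the 37 synthetases in DMSO cells, as CPM per kb of exon on a log axis, with genes in order of level along the horizontal axis. Points are means of 3 libraries, bars are SDs, blue marks cytosolic and orange mitochondrial members; *IARS2* is the orange point among the highest blue ones and *FARS2* is lowest.

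The cytosolic synthetases were lower almost as a whole in rapamycin. Of the 20 cytosolic genes 18 fell and none rose, and *YARS1*, *CARS1* and *GARS1*, the tyrosine, cysteine and glycine enzymes, fell most. Of the 17 mitochondrial genes 10 fell, *VARS2* and *AARS2* rose, and 5 did not pass the test. The difference between the classes was not tested, and single genes cross it, with *EARS2* lower than most cytosolic members and *QARS1* and *HARS1* not called. The cytosolic genes together went from 6024 ± 68.9 CPM in DMSO to 4318 ± 74.0 CPM in rapamycin (mean ± SD, n = 3), and the mitochondrial genes together from 1456 ± 21.5 to 1227 ± 21.6 CPM. The ratio of these sums went from 4.14 ± 0.0371 to 3.52 ± 0.0296. Such sums follow the most abundant genes, and *IARS2* alone held 446 of the mitochondrial CPM in DMSO and 345 in rapamycin.

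Genes were tested with edgeR's quasi-likelihood test, adjusted by Benjamini-Hochberg over all 17966 genes, and called at an adjusted p below 0.05. In rapamycin 30 of the 37 members were called, against 33.2% of all tested genes, 28 of them lower (16% of all) and 2 higher (17.2% of all). The rapamycin and DMSO libraries did not overlap in 32 members, against 43.6% of all tested genes. The median log2 fold change was -0.46 over the cytosolic and -0.23 over the mitochondrial members, against 0.02 over all tested genes, and the difference between the classes was -0.23. Without the dual-function genes *GARS1* and *KARS1* the cytosolic median stayed -0.46. In these bulk libraries, less of a transcript per cell and fewer cells that carry it cannot be told apart. When the test asked for a change beyond 1.2-fold, 17 members remained called, 12 cytosolic genes lower, 4 mitochondrial genes lower and 1 higher.

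**Figure D2:**
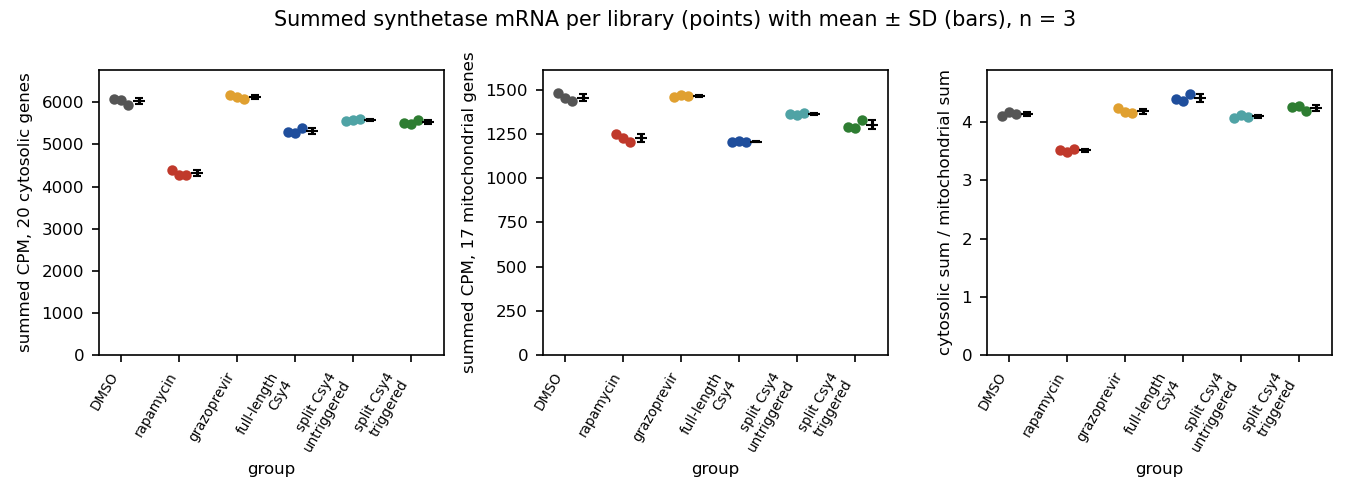
Summed CPM of the 20 cytosolic genes (left), of the 17 mitochondrial genes (middle) and the ratio of the sums (right) in each of the 18 libraries. Points are libraries, bars are mean ± SD of 3; the rapamycin libraries are lowest in the left and right panels, and full-length Csy4 has the lowest mean in the middle one.

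*YARS1*, which charges tyrosine, was at 372, 380.4 and 368 CPM in the DMSO libraries and at 178, 176 and 172 CPM in the rapamycin libraries. The groups were far apart, with a fold of 0.47 and a log2 fold change of -1.09 ± 0.0349 (SE, adjusted p = 2.23e-41). *GARS1*, which charges glycine in both compartments, was at 339, 336 and 326 CPM with DMSO and 196, 188 and 184 CPM with rapamycin. Its groups were apart as well, with a log2 fold change of -0.82 ± 0.0352 (SE, adjusted p = 2.93e-33). *IARS1* and *TARS1*, the threonine enzyme, fell with log2 fold changes of -0.66 ± 0.0286 (SE, adjusted p = 4.26e-33) and -0.56 ± 0.034 (SE, adjusted p = 3.96e-24). *CARS1*, the cysteine enzyme, stood at 73.6, 64.4 and 72.3 CPM with DMSO and 41.6, 37.0 and 37.1 CPM with rapamycin, a log2 fold change of -0.86 ± 0.0591 (SE, adjusted p = 2.47e-21). The 2 cytosolic genes that did not pass the test were *QARS1*, with a log2 fold change of -0.02 ± 0.0412 (SE, adjusted p = 0.714), and *HARS1*, with 0.002698 ± 0.0485 (SE, adjusted p = 0.973).

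Among mitochondrial members the smallest adjusted p belonged to *IARS2*, at 457, 448 and 433 CPM with DMSO and 365, 342 and 329 CPM with rapamycin. All rapamycin libraries lay below all DMSO libraries, with a log2 fold change of -0.37 ± 0.035 (SE, adjusted p = 1.26e-14). *LARS2*, the mitochondrial leucine enzyme, was at 112, 104 and 112 CPM with DMSO and 80.8, 78.0 and 82.8 CPM with rapamycin, a log2 fold change of -0.44 ± 0.0497 (SE, adjusted p = 1.53e-11). *NARS2*, the asparagine enzyme, had a log2 fold change of -0.43 ± 0.0622 (SE, adjusted p = 2.5e-08). *EARS2*, the glutamate enzyme, had the lowest value of the class at -0.64 ± 0.0932 (SE, adjusted p = 4.07e-08). Against this direction, *VARS2*, the valine enzyme, was at 44.4, 44.3 and 44.2 CPM with DMSO and 52.7, 63.6 and 62.6 CPM with rapamycin, a log2 fold change of 0.43 ± 0.0641 (SE, adjusted p = 5.85e-08). Its reads are uncertain, since 21.1% of its 50-base stretches also occur in other genes, nearly all in *GTF2H4*, which overlaps it on the same strand. *AARS2*, the alanine enzyme, rose with a log2 fold change of 0.25 ± 0.0561 (SE, adjusted p = 0.000277).

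The cytosolic genes listed as ATF4 targets had lower fold changes, by their median, than the others of the class, and this difference was not tested. These lists were drawn up with earlier results of these data known. Over all tested genes 16% were called lower with rapamycin and 17.2% higher. All 12 listed genes (*AARS1*, *CARS1*, *EPRS1*, *GARS1*, *IARS1*, *LARS1*, *MARS1*, *NARS1*, *SARS1*, *TARS1*, *WARS1* and *YARS1*) were called lower, with a median log2 fold change of -0.56 and a range from -1.09 to -0.25 on the log2 scale. Of the 8 cytosolic genes outside that list 6 were called lower, with a median of -0.14 and a range from -0.66 to 0.002698. The ranges of listed and unlisted genes overlap, and *VARS1*, which is not listed, fell by more than the listed median (-0.66, adjusted p = 9.62e-21). In the same libraries *ATF4* itself fell with a log2 fold change of -0.94 ± 0.0326 (SE, adjusted p = 2.57e-39). Of 26 genes that comprise ATF4 and targets other than synthetases, 21 were called lower and 2 higher, with a median of -0.81. Among them *PSAT1*, of serine synthesis, had a log2 fold change of -1.22, the cystine transporter gene *SLC7A11* -3.05 and the mTOR regulator gene *DDIT4* -2.03. *SESN2* and *ATF3* were the 2 listed genes called higher, at 0.18 and 0.17.

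Grouped by the sequences printed above, the 7 cytosolic genes with the response element in the window all fell, with a median log2 fold change of -0.62 and a range from -0.86 to -0.51. All 7 are also ATF4-listed genes of the paragraph above, so the same fold changes enter both groupings. Of the 9 with a window and no match 7 fell, with a median of -0.28, and none of them reached the smallest fall of the first set. The 4 cytosolic genes with no promoter entry (among them *YARS1*, *VARS1* and *LARS1*) all fell, with a median of -0.45. *YARS2*, the mitochondrial gene with a match, had a log2 fold change of -0.12 ± 0.0662 (SE, adjusted p = 0.168). The difference between these sets was not tested, and 16% of all tested genes were called lower with rapamycin.

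**Figure D3:**
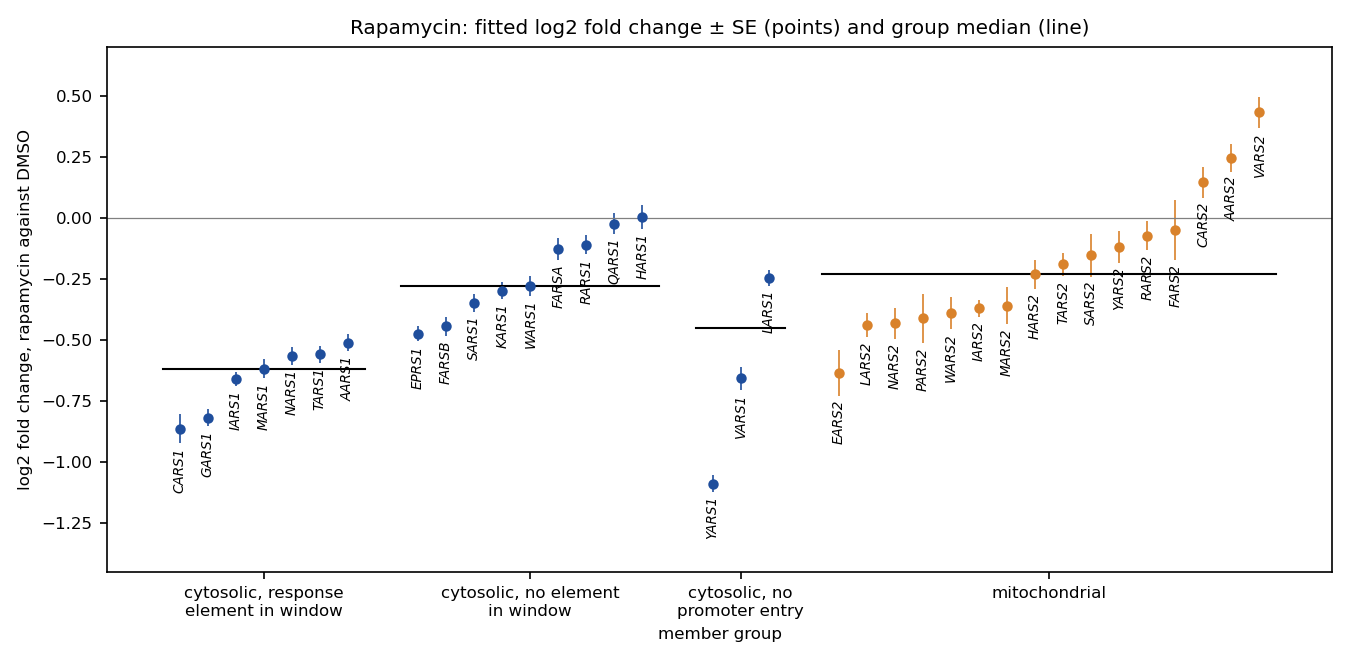
Fitted log2 fold change in rapamycin against DMSO for 35 of the 37 members, with cytosolic genes split by the response element in their promoter window and mitochondrial genes at the right. Points carry ± SE and lines mark the medians over all members of a group, which are -0.62, -0.28, -0.45 and -0.23 from left to right.

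The counts in this paragraph are to be read against the 16% of all tested genes called lower with rapamycin and the 17.2% called higher. Of the 8 enzymes of the multi-synthetase complex 7 were called lower, with a median log2 fold change of -0.27, and of the 12 cytosolic enzymes outside it 11 were called lower, with a median of -0.54. The 3 scaffold genes fell, with log2 fold changes of -0.45 ± 0.0821 (SE, adjusted p = 5.84e-06) for *EEF1E1*, -0.28 ± 0.074 (SE, adjusted p = 0.00185) for *AIMP2* and -0.18 ± 0.0519 (SE, adjusted p = 0.00428) for *AIMP1*. By enzyme architecture, 9 of 10 class I and 9 of 10 class II cytosolic genes were called lower, with medians of -0.55 and -0.40. *EPRS1*, which joins an enzyme of each class, was counted in class I only. Of 12 tested genes of tRNA export, processing and proofreading 5 were called lower and none higher, and *XPOT*, the export receptor of transfer RNAs, had a log2 fold change of -0.46 ± 0.0313 (SE, adjusted p = 2.59e-21). Of 13 tested genes of mitochondrial transamidation, formylation and translation 6 were called lower and none higher, with a median of -0.11. *GFM1* and *TUFM*, mitochondrial elongation factors, were among them at -0.33 and -0.26. Of 6 genes for charging selenocysteine tRNA 1 was called lower, *SEPHS2* at -0.14 ± 0.037 (SE, adjusted p = 0.00175). Of 11 genes for sensing uncharged tRNA and phosphorylating eIF2, 1 was called higher and 3 lower, among them *EIF2AK4*, which encodes the sensor kinase GCN2, at -0.18 ± 0.0473 (SE, adjusted p = 0.00122). The selenocysteine and sensing lists are small, and nothing particular to them is read from their counts.

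Full-length Csy4 against DMSO moved fewer synthetases downward, and others upward. *QARS1*, the glutamine enzyme, had the largest change, with a fold of 0.451, and *EPRS1* fell to a fold of 0.642. *AARS2*, *CARS1* and *HARS2* rose by 18% to 28%. Of 37 members 23 were called, against 46.9% of all tested genes. Called lower were 10 cytosolic and 8 mitochondrial members, against 24% of all tested genes, and called higher were 3 cytosolic and 2 mitochondrial members, against 22.9%. The groups did not overlap in 27 members, against 54% of all tested genes. The median log2 fold change was -0.09 over the cytosolic, -0.11 over the mitochondrial members and -0.01 over all tested genes.

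*QARS1* was at 195, 198 and 207 CPM in the DMSO libraries and 87.3, 91.1 and 92.03 CPM with full-length Csy4. The full-length libraries lay far below all DMSO libraries, and the log2 fold change was -1.15 ± 0.0438 (SE, adjusted p = 1.61e-36). The gene lies at chr3:49095932-49105135 on the minus strand of GRCh38. *EPRS1*, at chr1:219968601-220046658 on the minus strand, was at 637, 620.0 and 612 CPM with DMSO and 394, 398 and 409 CPM with full-length Csy4. The groups were far apart, with a log2 fold change of -0.64 ± 0.0317 (SE, adjusted p = 1.32e-29). *LARS1* and *IARS1*, which like these encode parts of the complex, fell with log2 fold changes of -0.29 ± 0.0326 (SE, adjusted p = 4.88e-12) and -0.27 ± 0.0283 (SE, adjusted p = 1.93e-13). Of the 8 enzymes of the complex 6 were called lower and 1, *RARS1*, higher, with a median of -0.22, while of the 12 outside it 4 were called lower and 2 higher, with a median of -0.04. By enzyme architecture, 6 of 10 class I cytosolic genes were called lower and 2 higher, also with a median of -0.22. Of the 10 class II genes 4 were called lower and 1 higher, with a median of -0.06. These groupings share members, and neither difference was tested. The scaffold genes gave 1 call in 3, *AIMP1* at -0.13 ± 0.0517 (SE, adjusted p = 0.0391). Over all tested genes 24% were called lower and 22.9% higher.

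Among mitochondrial members *IARS2* was at 457, 448 and 433 CPM with DMSO and 337, 356 and 355 CPM with full-length Csy4, a log2 fold change of -0.35 ± 0.035 (SE, adjusted p = 3.13e-14). Every full-length library lay below every DMSO library. The gene lies at chr1:220094102-220148041 on the plus strand, near *EPRS1*, which is read in the opposite direction. *CARS2* and *TARS2*, the mitochondrial cysteine and threonine enzymes, fell with log2 fold changes of -0.55 ± 0.0665 (SE, adjusted p = 6.96e-11) and -0.32 ± 0.0496 (SE, adjusted p = 8.42e-08). *AARS2* was at 54.6 ± 1.25 CPM with DMSO and 69.8 ± 2.42 CPM with full-length Csy4 (mean ± SD, n = 3) and rose with a log2 fold change of 0.35 ± 0.0557 (SE, adjusted p = 1.17e-07), and *HARS2* rose with a log2 fold change of 0.24 ± 0.0572 (SE, adjusted p = 0.000256).

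Related genes were called in both directions with full-length Csy4, to be read against the 24% of all tested genes called lower and the 22.9% called higher. Of the 26 genes of the ATF4 list 14 were called lower and 6 higher, with a median log2 fold change of -0.20, and *ATF4* was at -0.16 ± 0.0318 (SE, adjusted p = 2.3e-05). *ATF3* rose with a log2 fold change of 1.37, while the serine and glycine genes *SHMT2* and *PSAT1* fell, at -0.82 and -0.63. Of the 12 ATF4-listed synthetases 6 were called lower and 2 (*CARS1* and *TARS1*) higher, with a median of -0.11. Of the 13 tested mitochondrial translation genes 4 were called lower and 2 higher. *GATB*, a subunit of the transamidase that makes mitochondrial glutaminyl-tRNA, was at -0.57 ± 0.0763 (SE, adjusted p = 1.05e-09). Of the 12 tRNA export and processing genes 6 were called lower and 2 higher, with *XPOT* at -0.29 and *YRDC*, a tRNA modification enzyme, at 0.46. Of the 6 selenocysteine genes 3 were called lower, and of the 11 sensing genes 4 were called lower and 4 higher, with the phosphatase subunit gene *PPP1R15A* at 1.26. These lists are small, and nothing particular to any of them is read from its count.

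Many of the smaller calls with full-length Csy4 depend on the scaling or on 1 library. With library-size scaling alone, 5 cytosolic and 4 mitochondrial members were called higher and 7 and 5 lower, and over all called genes the share called higher went from 48.8% to 61.1%. It ended the calls of *FARSA*, *EARS2*, *LARS2*, *SARS2* and *NARS1*. Leaving out 1 library ended those of *EARS2* (DMSO 1 or 3, full-length 3; highest adjusted p 0.311), *FARSA* (DMSO 2 or 3, full-length 1 or 2; 0.536), *LARS2* (full-length 2; 0.161), *SARS2* (DMSO 2, full-length 1; 0.0702) and *TARS1* (DMSO 2 or 3, full-length 3; 0.199), with the p taken over all alternatives but the 1.2-fold test. Of the 23 called members 6 remained called beyond 1.2-fold, among them *QARS1*, *EPRS1*, *VARS1*, *CARS2* and *IARS2*.

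**Figure D4:**
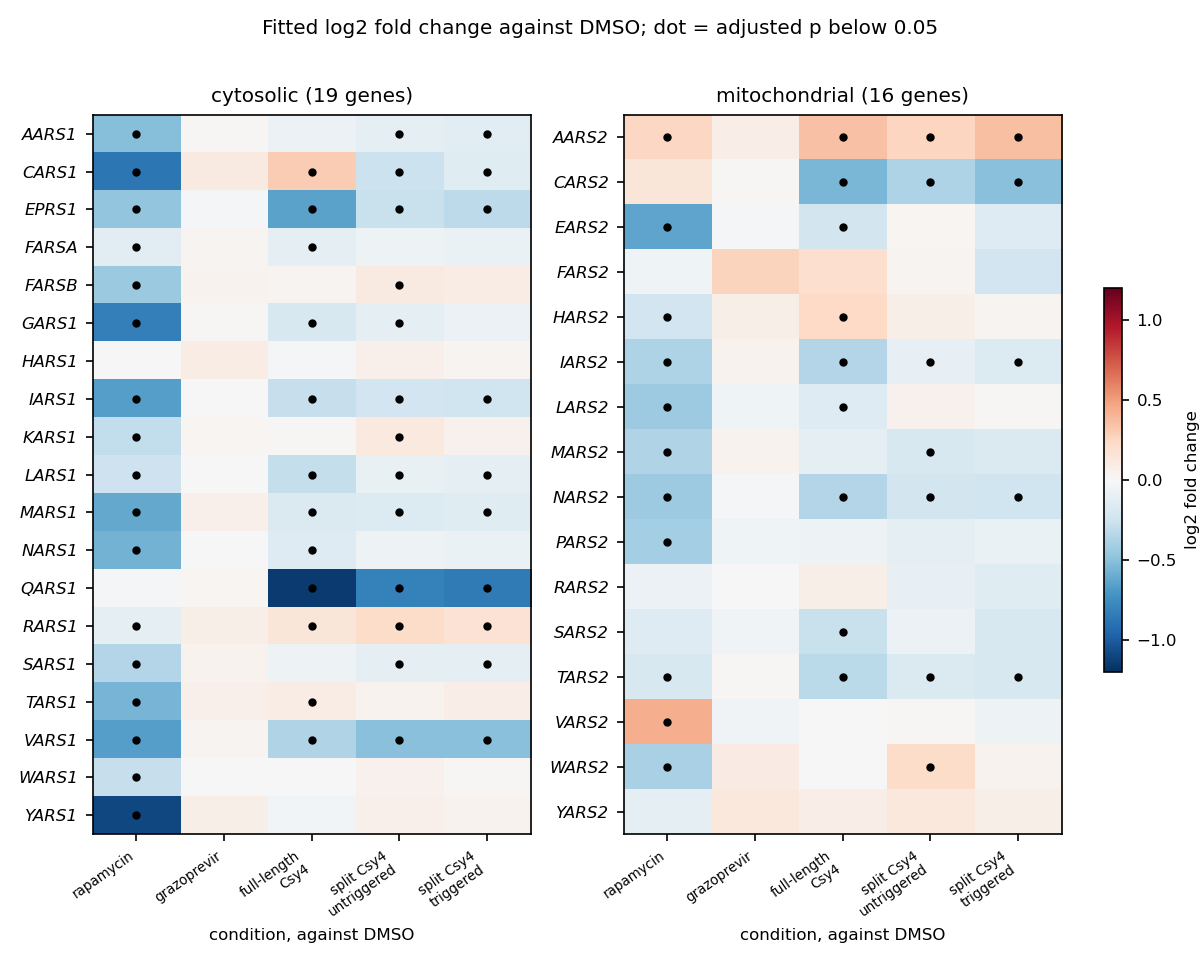
Fitted log2 fold change against DMSO for 19 cytosolic (left) and 16 mitochondrial members (right), with genes as rows and the 5 conditions as columns. Colour gives the log2 fold change and a dot marks an adjusted p below 0.05; the rapamycin column is blue with a dot for 17 of these 19 cytosolic genes, while *QARS1* is pale there and dark blue in the Csy4 columns.

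Split Csy4 was set against the same DMSO libraries, with and without its trigger. In untriggered cells *QARS1*, *VARS1* (valine), *CARS2* and *EPRS1* were among the largest falls, and *AARS2* and *RARS1* (arginine) the largest rises. Of 37 members 21 were called, against 28.9% of all tested genes: 10 cytosolic and 6 mitochondrial members lower, against 14.1%, and 3 and 2 higher, against 14.8%. In triggered cells 17 members were called, against 31.6% of all tested genes: 10 cytosolic and 5 mitochondrial members lower, against 15.6%, and 1 and 1 higher, against 16%. The groups did not overlap in 25 members untriggered, against 40.6% of all tested genes, and in 24 triggered, against 43.3%. These comparisons share the DMSO libraries with each other and with those above.

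*QARS1* was at 110.4, 119 and 113 CPM in the untriggered and 106, 118 and 110.3 CPM in the triggered libraries. These ranges overlap each other and lie between those of full-length Csy4 and DMSO. The log2 fold change against DMSO was -0.81 ± 0.0428 (SE, adjusted p = 7.77e-27) untriggered and -0.85 ± 0.0432 (SE, adjusted p = 1.95e-27) triggered. *VARS1* was at 157, 154 and 150.1 CPM with DMSO, 122, 119 and 117 CPM with full-length, 99.9, 115 and 111 CPM with untriggered and 105, 111 and 111 CPM with triggered Csy4. Its log2 fold change (± SE) was -0.50 ± 0.0458 untriggered, -0.50 ± 0.0461 triggered and -0.36 ± 0.0455 with full-length Csy4. *EPRS1* was at 512, 512 and 524 CPM untriggered and 494, 491 and 515 CPM triggered, log2 fold changes of -0.27 and -0.32. *IARS1* fell with log2 fold changes of -0.23 and -0.24 in the same order.

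Of the mitochondrial members, *CARS2* was at 48.7, 47.1 and 50.1 CPM with DMSO, 38.0, 38.0 and 37.1 CPM untriggered and 36.4, 31.1 and 35.4 CPM triggered. Both split groups lay below all DMSO libraries, with log2 fold changes of -0.37 ± 0.0655 (SE, adjusted p = 5.99e-06) and -0.50 ± 0.0669 (SE, adjusted p = 4.32e-09). *NARS2* fell with log2 fold changes of -0.22 and -0.24. *TARS2* fell in both groups, with log2 fold changes of -0.17 ± 0.0491 (SE, adjusted p = 0.00458) untriggered and -0.19 ± 0.0495 (SE, adjusted p = 0.00166) triggered. *IARS2* also fell in both, with -0.10 ± 0.0347 (SE, adjusted p = 0.0235) and -0.17 ± 0.0349 (SE, adjusted p = 8.72e-05). *AARS2* rose with log2 fold changes of 0.26 ± 0.0561 (SE, adjusted p = 0.000162) and 0.36 ± 0.0561 (SE, adjusted p = 3.32e-07), and *WARS2*, the tryptophan enzyme, rose with a log2 fold change of 0.22 ± 0.0617 (SE, adjusted p = 0.0037) in untriggered cells and was not called in triggered cells, at 0.04. Beyond 1.2-fold, *QARS1* and *VARS1* remained called in untriggered cells, and 4 members, among them *QARS1*, *VARS1* and *CARS2*, in triggered cells. With library-size scaling alone the triggered calls became 3 cytosolic and 1 mitochondrial member higher and 9 and 5 lower. The untriggered call of *NARS2* was lost without untriggered replicate 2 (highest adjusted p 0.0682), that of *IARS2* without DMSO replicate 1, DMSO replicate 2 or untriggered replicate 2 (0.133).

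In the ATF4 list 6 genes were called higher and 10 lower in untriggered and 5 higher and 9 lower in triggered cells, with medians of -0.12 and -0.07. *ATF4* was at -0.02 ± 0.0318 (SE, adjusted p = 0.686) and 0.03 ± 0.0318 (SE, adjusted p = 0.554). Of the 12 ATF4-listed synthetases 8 were called lower and none higher in untriggered cells, and 7 lower and none higher in triggered cells, with medians of -0.11 and -0.12. Of the 8 enzymes of the complex 5 were called lower and 2 higher in untriggered and 6 lower and 1 higher in triggered cells. The counts in this paragraph stand beside 14.8% of all tested genes called higher and 14.1% lower in untriggered cells. In triggered cells these shares were 16% and 15.6%.

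**Figure D5:**
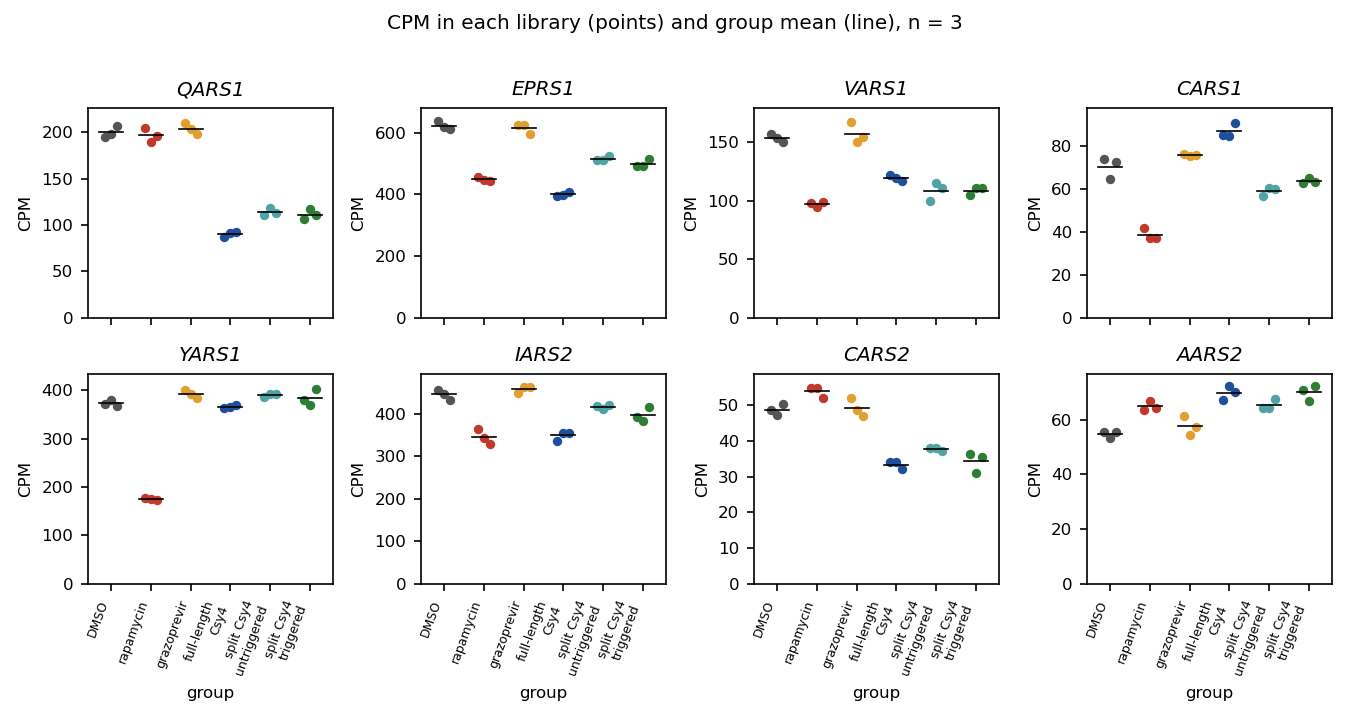
CPM of 8 members in every library, with the 6 groups along the horizontal axis and a vertical axis that starts at 0 in each panel. Points are libraries and lines are means of 3; *QARS1* is low in the 3 Csy4 groups and near DMSO with rapamycin, *YARS1* is low with rapamycin, and *CARS1* is high with full-length Csy4.

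Full-length and split Csy4 were then compared directly, between transfected groups. Full-length libraries had less *EPRS1*, *QARS1*, *LARS1* and *IARS2* than either split group, and more *CARS1*. Against untriggered split Csy4 17 members were called, against 28% of all tested genes, 4 higher (13.1% of all) and 13 lower (14.9% of all), and the groups did not overlap in 24 (39.3% of all). Against triggered split Csy4 12 members were called, against 22.3% of all tested genes, 5 higher (10.1% of all) and 7 lower (12.2% of all), and the groups did not overlap in 16 (35.6% of all). *CARS1* was 0.56 ± 0.0558 and 0.45 ± 0.0558 higher (log2 fold change ± SE) than in untriggered and triggered cells, with adjusted p of 1.38e-13 and 6.48e-10. On the same scale *EPRS1* differed by -0.37 ± 0.0319 and -0.32 ± 0.032, and *QARS1* by -0.34 ± 0.0456 and -0.30 ± 0.046, all with adjusted p of 1.93e-07 or less. *LARS1* differed by -0.20 and -0.17, *IARS2* by -0.25 and -0.19 and *LARS2* by -0.21 and -0.17. *VARS1* was higher in full-length than in untriggered cells by 0.14 ± 0.0469 (SE, adjusted p = 0.0214) and than in triggered cells by 0.14 ± 0.0472 (SE, adjusted p = 0.029), calls that were lost without full-length replicate 1 and under 2 and 3 further alternatives. *HARS2* and *RARS2*, the mitochondrial histidine and arginine enzymes, were higher on the log2 scale by 0.18 and 0.17 against untriggered and by 0.21 and 0.21 against triggered cells. *FARS2* was higher by 0.43 ± 0.126 (SE, adjusted p = 0.00836) against triggered cells, a call lost without triggered replicate 1, and *GARS1* differed by -0.12 ± 0.0347 (SE, adjusted p = 0.00781).

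Of these calls 8 of 17 and 7 of 12 held under every alternative except the test against a 1.2-fold change. The calls of *HARS2* and *RARS2* against untriggered cells were lost without full-length replicate 1, among other single libraries, and with no filter on low counts (highest adjusted p over these alternatives 0.0813 and 0.0962). Against triggered cells, that of *RARS2* was lost without triggered replicate 2 (0.0705), that of *LARS2* with library-size scaling alone or without full-length replicate 2 (highest of these 0.101) and that of *GARS1* with library-size scaling alone or without full-length replicate 3 or triggered replicate 3 (highest of these 0.21). Against untriggered split Csy4 10 members were called without full-length replicate 1 and 11 with no filter on low counts, and library-size scaling alone gave 8 higher and 7 lower, with the share of all called genes that were higher going from 46.7% to 67.8%. Against triggered split Csy4 it gave 7 higher and 5 lower, and that share went from 45.5% to 67.5%.

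No change of a synthetase was detected with grazoprevir alone. None of the 37 members was called with edgeR, and none with DESeq2, against 0.2% of all tested genes with edgeR (0.106% higher and 0.0946% lower). The groups did not overlap in 9 members, against 13.4% of all tested genes, and 3 members had an unadjusted p below 0.05. The smallest adjusted p was 0.467. Grazoprevir replicate 1 lay further from its partners than any other replicate pair lay apart. A chi-square per gene, the squared deviation scaled by that of random sampling, was 4.63 and 3.57 against replicates 2 and 3. Between replicates 2 and 3 it was 2.21. Leaving out each library in turn gave 0 calls as well. The median log2 fold change was 0.03 over the cytosolic and 0.01 over the mitochondrial members, and the highest value was 0.27, for *FARS2*. *QARS1* was at 209.8, 203 and 198 CPM and *YARS1* at 399.7, 391.9 and 384 CPM with grazoprevir, beside their DMSO levels given above.

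The trigger likewise gave no call within split Csy4 cells. Of 37 members none was called between triggered and untriggered cells, against 0.2% of all tested genes (0.195% higher and 0.00557% lower). The groups did not overlap in 10 members, against 13.3% of all, 3 had an unadjusted p below 0.05 and the smallest adjusted p was 0.265. The interaction, which asks whether grazoprevir acted differently in split Csy4 cells than in untransfected ones, gave no call, against 0.351% of all tested genes (0.178% higher and 0.173% lower), with 4 unadjusted p below 0.05 and a smallest adjusted p of 0.174, for *WARS2* at -0.28 ± 0.0883 (log2 fold change ± SE). DESeq2 also gave 0 calls in both. A p above the threshold does not show that the groups were alike.

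Triggered split Csy4 was also compared with grazoprevir alone, in which both groups received the drug and the DMSO group is not part of the contrast. The DMSO libraries still entered the filter, the scaling and the shared estimate of the spread. Of 37 members 21 were called, against 32.1% of all tested genes, 19 of them lower (16% of all) and 2 higher (16.2% of all), and the groups did not overlap in 24 (40.8% of all). On the log2 scale *QARS1* differed by -0.87 ± 0.0434 (SE, adjusted p = 3.53e-28), *VARS1* by -0.53 ± 0.0464 (SE, adjusted p = 6.24e-16) and *CARS2* by -0.52 ± 0.0675 (SE, adjusted p = 2.12e-09). *EPRS1*, *IARS1*, *IARS2* and *TARS2* were lower, with log2 fold changes of -0.30, -0.25, -0.21 and -0.20. *AARS2* was higher by 0.28 ± 0.0564 (SE, adjusted p = 4.19e-05) and *RARS1* by 0.10 ± 0.0387 (SE, adjusted p = 0.0294), the latter a call lost with no filter and without grazoprevir replicate 3 or triggered replicate 1 or 2 (highest adjusted p 0.178).

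*GARS1*, whose single gene serves both compartments, was at 295, 295 and 286 CPM with full-length, 307, 314 and 308 CPM with untriggered and 309, 317 and 325 CPM with triggered Csy4. All of these libraries lay below the lowest DMSO library. It fell with full-length Csy4, at a log2 fold change of -0.19 ± 0.0344 (SE, adjusted p = 2.14e-06), and in untriggered cells, at -0.11 ± 0.0343 (SE, adjusted p = 0.0114), a call lost without DMSO replicate 1 (adjusted p = 0.0608). In triggered cells it was not called, at -0.07 ± 0.0343 (SE, adjusted p = 0.0908).

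A few members were called in opposite directions in different conditions. The differences between rapamycin and the Csy4 groups were not themselves tested, and each comparison below is against the same DMSO libraries. *CARS1* was at 84.7, 84.7 and 90.3 CPM with full-length Csy4, above its DMSO libraries, and at 56.6, 60.1 and 59.8 CPM untriggered and 62.6, 65.1 and 62.9 CPM triggered. Its log2 fold change was 0.31 with full-length Csy4, -0.25 untriggered, -0.14 triggered and -0.86 with rapamycin. The triggered libraries overlapped the DMSO libraries, and that call (adjusted p = 0.0437) was lost under 8 alternatives. *TARS1* was at 478, 464 and 452 CPM with DMSO, 484, 484 and 517 CPM with full-length Csy4 and 331, 313 and 302 CPM with rapamycin. Only the rapamycin libraries stand far apart, and the rise with full-length Csy4, 0.09 ± 0.0334 (SE, adjusted p = 0.0186), was lost with no filter on low counts and without the single libraries named above.

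*RARS1*, which charges arginine, was at 195, 204 and 198 CPM with DMSO, 219, 217 and 225 CPM with full-length, 222, 236 and 239 CPM with untriggered and 225, 232 and 219 CPM with triggered Csy4. All transfected libraries lay above all DMSO libraries, with log2 fold changes of 0.15, 0.22 and 0.18. With rapamycin it was at 193, 178 and 182 CPM, a log2 fold change of -0.11 ± 0.0389 (SE, adjusted p = 0.0201) that was lost without DMSO replicate 2 or rapamycin replicate B or C. *KARS1*, which charges lysine in both compartments, was at 265, 270.1 and 257 CPM with DMSO, 292, 281 and 284 CPM untriggered and 214, 215 and 215 CPM with rapamycin. Its rise in untriggered cells was 0.11 ± 0.0353 (SE, adjusted p = 0.00938), lost without DMSO replicate 3, without untriggered replicate 1 or with no filter on low counts, and its fall with rapamycin was -0.30 ± 0.0358 (SE, adjusted p = 1.12e-10). With full-length Csy4 it was at 262, 265 and 272 CPM, overlapping DMSO. *FARSB*, the beta subunit of the phenylalanine enzyme, was at 186, 182 and 176 CPM with DMSO, 195, 196 and 194 CPM untriggered and 135, 132 and 133 CPM with rapamycin. It fell with rapamycin with a log2 fold change of -0.45 ± 0.0395 (SE, adjusted p = 8.93e-16), and its rise in untriggered cells, 0.10 ± 0.0385 (SE, adjusted p = 0.0336), was lost without DMSO replicate 2 or 3 or any 1 untriggered library, and with no filter. *FARSA*, the alpha subunit, had a log2 fold change of -0.13 with rapamycin and -0.06 in untriggered cells.

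*WARS2* was at 43.4, 45.6 and 46.0 CPM with DMSO, 50.5, 53.8 and 52.9 CPM untriggered and 34.1, 35.3 and 33.4 CPM with rapamycin, with the groups in 3 separate ranges. Its log2 fold change with rapamycin was -0.39 ± 0.0647 (SE, adjusted p = 8.06e-07). *HARS2* was at 55.4, 55.8 and 51.8 CPM with DMSO, 66.9, 63.1 and 63.2 CPM with full-length Csy4 and 47.9, 45.6 and 45.6 CPM with rapamycin, again in separate ranges, and its log2 fold change with rapamycin was -0.23 ± 0.0592 (SE, adjusted p = 0.00125). Its head-to-head neighbour *HARS1* was called in no comparison. It was at 97.5, 104 and 94.4 CPM with DMSO, 95.5, 95.0 and 101 CPM with full-length Csy4 and 106, 95.7 and 94.8 CPM with rapamycin, ranges that overlap. *HARS1* lies at chr5:140673904-140691862 on the minus strand and *HARS2* at chr5:140691426-140699318 on the plus strand of chromosome 5. Their exons share 437 bases, 11.7% of the exon length of *HARS2*, and reads there cannot be assigned without strand information, which is not given in the sources used here. *YARS2* was likewise called in no comparison.

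Other members share exons or sequence with neighbours and are uncertain for that reason. *SARS2* shares 39.52% of its 50-base stretches with a neighbouring gene model on the same strand, and *MARS1* overlaps *ARHGAP9* and the stress response gene *DDIT3* on the opposite strand. *DDIT3* had log2 fold changes of 0.72 with full-length Csy4 and -0.25 with rapamycin, and *MARS1* -0.17 and -0.62. No exon of another gene overlapped 16 of the members, among them *EPRS1*, *IARS1*, *VARS1* and *IARS2*, and *QARS1* overlapped only a microRNA gene.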

How the data were processed

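The deposited values are raw counts per gene in 1 table of 18 libraries. Per the labels, poly(A) RNA was isolated with oligo(dT) beads and primed at random. Per the submitters' processing notes, the tools were HTSeq 0.6.1, HISAT2 2.2.1, DESeq2 1.44.0 and cutadapt 1.9.1, with hg38, and the strand setting is not given in the sources used here. The 3 rapamycin columns share 1 header, so these libraries are called A, B and C. No replicate pair held identical values.

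The tests used edgeR 4.0.16 (R 4.3.3): filterByExpr, TMM factors, 1 robust quasi-likelihood fit of 6 group means over 17966 genes, and Benjamini-Hochberg adjustment over all of them (called below 0.05). Some members enter the counts, sums and medians but are not reported one by one here. A standard error is the size of the log2 fold change over the root of its F statistic. The fit was tested on simulated data. Positions and exon lengths come from the GENCODE annotation of GRCh38, promoter windows from RefSeq.

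Members, related lists and motifs were chosen with earlier results of these data known. Named with values are, in each comparison, up to 4 called members per class and direction with the smallest adjusted p, *KARS1*, *GARS1*, *HARS1* and *HARS2*, members with opposite calls, and up to 3 called genes of a related list. Some further genes (*CARS1*, *QARS1*, *VARS1*, *EARS2* and *YARS2* in rapamycin, list genes such as *GATB*, *PSAT1*, *DDIT3*, *SESN2*, *ATF3* and *EIF2AK4*, and the smallest p in comparisons without calls) were chosen after their values were seen. Alternatives were a replicate block, DESeq2 1.42.0, other size factors (median of ratios, or library size alone), no filter on low counts or a stricter one (1 CPM in at least 3 libraries), a 1.2-fold null, a model of the compared groups alone, and each library left out in turn. Figures were drawn with matplotlib 3.10.9.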

Additional observations from a re-analysis of the deposited data

How the results depend on the processing

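No call reversed its direction in any alternative that was run. Differences near 0 could change sign, as the untested class difference of full-length against triggered split Csy4 did when single libraries were left out. The test against a 1.2-fold change left 6 of 23 members called for full-length Csy4 against DMSO, 2 of 21 for untriggered and 4 of 17 for triggered split Csy4, and 17 of 30 for rapamycin. It left 3 of 17 for full-length against untriggered, 1 of 12 for full-length against triggered, and 3 of 21 for triggered split Csy4 against grazoprevir alone, which is what a stricter null gives. With no filter on low counts full-length against untriggered gave 11 calls. Under all other alternatives together 16, 14, 16 and 28 of the calls against DMSO were kept with full-length, untriggered, triggered Csy4 and rapamycin. For full-length against untriggered, full-length against triggered, and triggered against grazoprevir alone, 8, 7 and 16 were kept. The causes of the other losses were not tested.

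Leaving out each library in turn gave 19 to 22 calls for full-length Csy4, 17 to 19 for untriggered, 16 to 17 for triggered and 28 to 30 for rapamycin. It gave 10 to 13 for full-length against untriggered (10 without full-length replicate 1), 10 to 11 for full-length against triggered and 17 to 23 for triggered against grazoprevir alone. The cytosolic less mitochondrial median then ran from -0.25 to -0.21 for rapamycin, 0.00496 to 0.0683 for full-length, -0.0583 to -0.0043 for untriggered and 0.03 to 0.07 for triggered Csy4. It ran from 0.04 to 0.07 and from -0.04 to 0.04 for full-length against untriggered and triggered, from 0.01 to 0.05 for triggered against grazoprevir alone, and from 0.00178 to 0.0533 for the interaction. With the replicate block 23 members were called for full-length, 21 for untriggered and 17 for triggered Csy4, 16 for full-length against untriggered, 12 for full-length against triggered and 21 for triggered against grazoprevir alone. Same-numbered libraries did not deviate together (r from -0.041 to 0.0476), and 2 of 15 correlated best with their own number. No paired analysis was possible for rapamycin because its columns share the same header. Depth limits the low members most: *FARS2* had an SE of 0.12 on the log2 scale with full-length Csy4.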
